A study of Homo sapiens with 11 samples.

Results

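The TYRP1 locus is the stretch of chromosome 9 that holds the TYRP1 gene with 100 kb on either side. In the deposited peak lists of 92-1 cells it held as many SOX10 peaks after the SMARCA4 and SMARCA2 inhibitor FHT-1015 as after its solvent DMSO, 32 in each. The locus was chosen by that number, so the SOX10 counts are a description and were not tested. Its members are every peak that shares at least 1 bp with positions 12593385 to 12810285 of chromosome 9 (GRCh38), a window of 216.9 kb. There were 264 such peaks among 1174738 in all lists: 206 of 888435 narrow peaks and 58 of 286303 broad peaks.

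92-1 is an established cell line from a uveal melanoma, a tumour of the pigment cells of the eye. The cells were treated for 4 h with DMSO or with FHT-1015, and chromatin was precipitated with antibodies to SOX10, MITF, TFAP2A (AP-2 in the sample titles), SMARCA4 (also called BRG1) and histone H3 acetylated at lysine 27 (H3K27ac). Each antibody had 1 library per condition, 10 in all, and an 11th sample was a DMSO input for which no list was used here. The labels give all groups as the same line and name no genetic change and no dose, and RNA was not measured. With 1 library per group no difference has a replicate check, and comparisons carry no p-value.

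TYRP1 encodes a membrane protein of the melanosome, a relative of tyrosinase that acts in the synthesis of brown-black melanin. Its promoter is a classic target of MITF, the bHLH-leucine zipper factor of the melanocyte lineage, which binds E-box sequences and in pigment genes a longer form called the M-box. SOX10 is an HMG-box factor of the neural crest and of melanocytes, TFAP2A is a neural crest factor that acts beside MITF, and SMARCA4 is an ATPase of the BAF complexes, which move nucleosomes. H3K27ac marks active promoters and enhancers, and long unbroken domains of it are typical of strongly expressed genes of a cell's lineage.

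TYRP1 itself lies at chr9:12693385-12710285 on the plus strand and is 16.9 kb long. LURAP1L-AS1, a long non-coding RNA gene on the minus strand, runs from 12699999 to 12814389 and so overlaps the 3′ part of TYRP1. LURAP1L, the next protein-coding gene, starts at 12775020, which is 81.64 kb beyond the start of TYRP1, and the pseudogene RN7SL849P lies between them at 12764761 to 12765055. Exons and introns were not analysed here, so positions within TYRP1 are given as distances from its start.

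The promoter is shown because the strongest SOX10 and MITF peaks at the gene itself have their summits in it and because it holds the sequence that MITF is known to bind. These are the 250 bases before the annotated start (RefSeq, GRCh38.p14, plus strand, chr9:12693135-12693384), and capitals mark the matches to CATGTG and to its longer form TCATGTG, the core of the M-box.
TYRP1 promoter: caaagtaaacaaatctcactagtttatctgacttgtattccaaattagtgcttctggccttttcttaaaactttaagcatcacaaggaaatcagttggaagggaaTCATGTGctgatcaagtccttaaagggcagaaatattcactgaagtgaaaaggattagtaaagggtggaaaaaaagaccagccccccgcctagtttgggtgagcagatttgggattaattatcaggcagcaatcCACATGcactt

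The M-box core begins 145 bp before the start, at 12693240. A second CATGTG lies 11 bp before the start and reads CACATG on the strand printed. The 6 motifs named here were searched on both strands in these 250 bases, and TCATGTG contains CATGTG, so that each TCATGTG match is counted under both. Over 35116 promoters of the same length, 2.52% held TCATGTG and 9.42% held CATGTG. The TYRP1 window held neither the other E-box CACGTG (6.34% of promoters), nor the SOX words ACAAAG (13.7%) and ACAAT (24.6%), nor the AP-2 word GCCNNNGGC (19.8%). These are matches of letters in this window and do not show where a factor was bound.

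The tyrosinase gene TYR, the enzyme of the first steps of melanin synthesis, holds the same 7 letters in its promoter and serves below as a comparison, since its locus lost most of its SOX10 peaks. The M-box core begins 105 bp before the start of TYR, and 30 bases around it are printed for each gene with the core in capitals (GRCh38.p14, plus strand, chr9:12693229-12693258 for TYRP1 and chr11:89177759-89177788 for TYR).
TYRP1: ttggaagggaaTCATGTGctgatcaagtcc
TYR: agaaaagtcagTCATGTGcttttcagagga

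A broad H3K27ac domain covered the whole of TYRP1 in both conditions and was wider after FHT-1015. In DMSO it ran from 12670013 to 12711026, 41.0 kb, from 23.4 kb before the gene to 0.741 kb past its end. In FHT-1015 it ran from 12666276 to 12714996, 48.7 kb, from 27.1 kb before the gene to 4.71 kb past its end. The FHT-1015 domain also met separate broad H3K27ac peaks of DMSO, which began at 12666123, 12666670 and 12711434. Their folds were 2.63, 2.97 and 2.18. Part of the added width was thus already under H3K27ac peaks in DMSO. By width it ranked 4 of 53087 broad H3K27ac peaks in DMSO and 3 of 41134 in FHT-1015, in lists whose median widths were 964 bp and 966 bp. The authors' fold enrichment, a ratio of reads at the peak to the caller's background, was 17.5 over the domain in DMSO and 22.9 in FHT-1015.

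Both narrow H3K27ac lists divided the domain at about 10.1 kb before the gene. In FHT-1015 its upstream end held further narrow peaks, which began at 12666276 and 12668555 and had folds of 7.33 and 3.53. The piece over the gene reached a fold of 49.5 in DMSO and 58.5 in FHT-1015, with its highest point at 12694254 and 12694252, about 0.87 kb inside the gene. By −log10 p, the authors' measure of how far a peak stands above background, this piece ranked 20 of 68093 peaks in DMSO and 3 of 48103 in FHT-1015. The upstream piece next to it, 13142 bp long in DMSO and 13802 bp in FHT-1015, reached a fold of 36.0 in DMSO and 53.5 in FHT-1015. The reads at each summit could be recovered from the fold and the −log10 p. Divided by the mean coverage of the library, which removes depth, the ratio of FHT-1015 to DMSO was 1.18 at the gene piece and 1.2 at the upstream piece. Over all retained H3K27ac peaks that ratio had a median of 1.23.

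**Figure D1:**
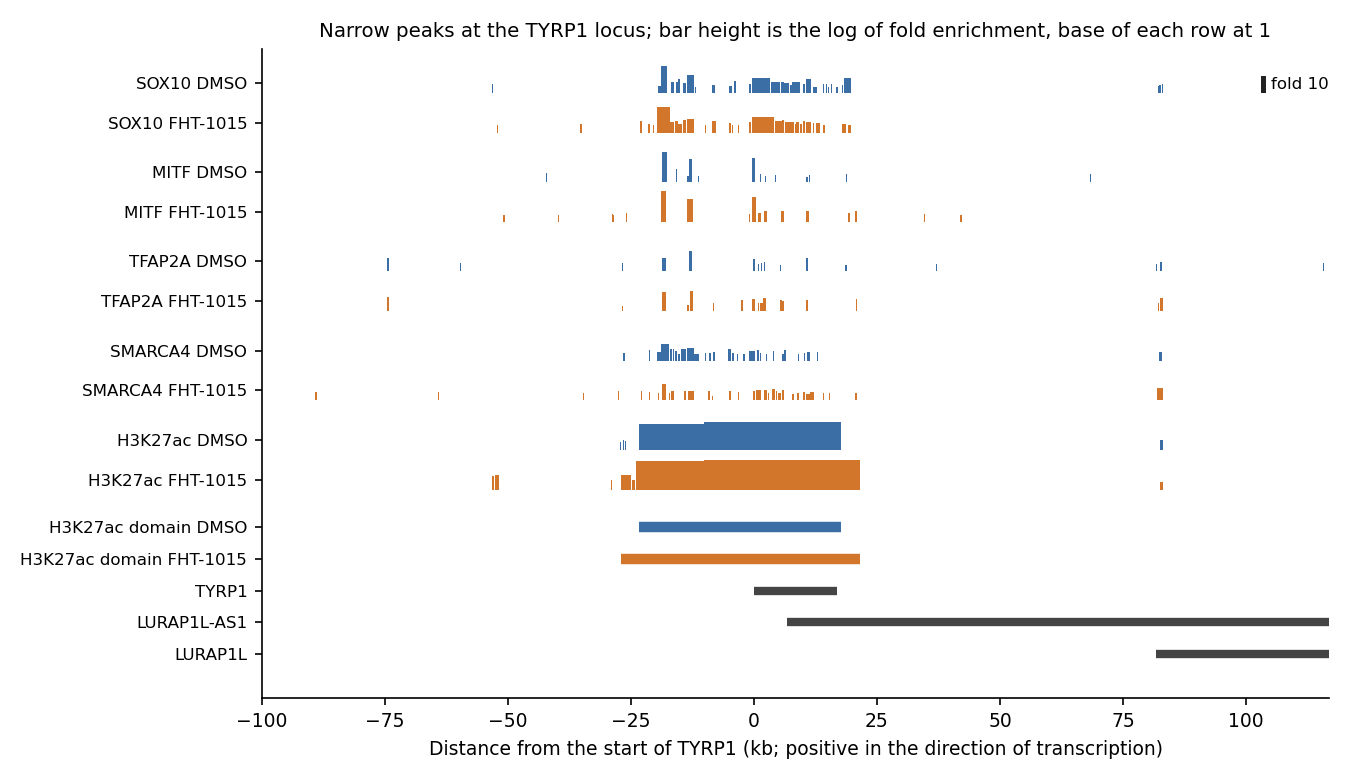
Narrow peaks of each antibody and condition across the TYRP1 window, against distance from the start of TYRP1 in kb, with bar height the log of fold enrichment from 1 at the base of each row, and the broad H3K27ac domains and genes as lines. Tall SOX10 and MITF bars stand at 18.15 kb and 12.81 kb upstream and at the start in both conditions, inside the H3K27ac domain. The tallest TFAP2A bar stands at 12.81 kb upstream in both conditions. The SOX10 bars at the start of LURAP1L are present in DMSO alone.

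A DMSO peak counts as retained when it shares at least 1 bp with a peak that the same antibody had in FHT-1015. At the TYRP1 locus 22 of the 32 SOX10 peaks were retained, 68.8% (95% exact interval 50 to 83.9%), against 18.3% over the whole DMSO list. That share follows from the choice of the locus and nothing is read from it. The 32 peaks in FHT-1015 were not the same 32 peaks: 10 DMSO peaks were lost, and 7 FHT-1015 peaks (21.9%, against 38.5% of the whole FHT-1015 list) had no DMSO peak under them. The other 25 FHT-1015 peaks shared bases with the 22 retained ones, since some DMSO peaks were split and others fused. Intervals here cover counting over peaks or reads only, not the variation between cultures or precipitations.

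MITF, TFAP2A, SMARCA4 and H3K27ac peaks did not choose the locus, although they lie in the chromatin that did. MITF went from 14 to 17 peaks with 8 of 14 retained, 57.1% (28.9 to 82.3%), against 36.2% over its whole list. TFAP2A went from 16 to 17 with 11 of 16 retained, 68.8% (41.3 to 89.0%), against 54.9%. SMARCA4 went from 31 to 33 with 21 of 31 retained, 67.7% (48.6 to 83.3%), against 52.0%. H3K27ac went from 6 to 8 with 6 of 6 retained, which allows a share from 54.1% to 100%, against 59.3%. The interval of each of these 4 antibodies contains the share of its whole list, so that with so few peaks their retention at TYRP1 could not be distinguished from the background. FHT-1015 peaks with no DMSO peak made up 64.7% of MITF peaks at the locus (64.8% of the list), 35.3% of TFAP2A peaks (34.4%), 39.4% of SMARCA4 peaks (45.4%) and 50% of H3K27ac peaks (19.8%). In its broad list SMARCA4 had 19 peaks at the locus in DMSO and 29 in FHT-1015, with 16 of the 19 retained. A DMSO broad peak of 9514 bp was split into several FHT-1015 peaks, and elsewhere others were joined. FHT-1015 broad peaks without a DMSO one that started at −97.67 to −27.61 kb had a −log10 p of 2.23 to 3.41. Shares over the whole broad lists are not given here, so nothing is read from these counts.

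MITF had 3 peaks at the locus with a −log10 p of at least 100 in DMSO, and a SOX10, a TFAP2A and a SMARCA4 peak lay over each of them in both conditions. They stand 18.15 kb upstream of the gene, 12.81 kb upstream and at the promoter, 5.36 kb and 12.7 kb apart, all inside the H3K27ac domain. Since no genome sequence was at hand, the bases of the 2 upstream sites are not shown.

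The site 18.15 kb upstream was the strongest SOX10 peak of the locus and among the strongest of the genome. Its SOX10 summit fell on the same base, 12675238, in both conditions. The summit had 197 reads in DMSO (95% exact Poisson interval 170 to 227) and 191 in FHT-1015 (165 to 220). The fold was 40.2 and 34.2, and the rank by −log10 p was 46 of 103379 in DMSO and 12 of 33268 in FHT-1015. Relative to the mean coverage of each library, SOX10 in FHT-1015 was 0.861 times its DMSO value, and the intervals of the 2 counts overlap. MITF at this site had 214 reads in DMSO and 222 in FHT-1015, a ratio of 1.17 after depth, with folds of 66.6 and 75. TFAP2A had 28 reads in DMSO (18.6 to 40.5) and 49 in FHT-1015 (36.3 to 64.8), and its depth-corrected ratio was 1.76. SMARCA4 had 39 and 36 reads, a ratio of 0.995. The summits of the 4 proteins lay within 125 bp of each other in DMSO and within 60 bp in FHT-1015.

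At the site 12.81 kb upstream SOX10 was lower after FHT-1015, with read intervals that do not overlap, while MITF, TFAP2A and SMARCA4 had overlapping intervals. The SOX10 summit, at 12680573 in DMSO and 12680592 in FHT-1015, had 125 reads (104 to 149) and 69 reads (53.7 to 87.3), and its depth-corrected level was 0.489 times the DMSO one. Its fold was 11.6 in DMSO and 6.24 in FHT-1015. MITF had 187 and 153 reads, a ratio of 0.925, and TFAP2A, strongest here among its peaks at the locus, had 156 and 143 reads, a ratio of 0.920. SMARCA4 had 35 and 38 reads, a ratio of 1.17. The 4 summits lay within 91 bp in DMSO and 30 bp in FHT-1015. The SOX10 peak counts as retained although its ratio lies below 0.599, the median over all SOX10 peaks retained in the genome.

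At the promoter SOX10 had 54 summit reads in both conditions (40.6 to 70.5 each), a ratio of 0.886 after depth, with folds of 7.98 and 8.17. Its summit lay 30 bp before the start of TYRP1 in DMSO and 65 bp before it in FHT-1015, in peaks 3703 bp and 4561 bp wide that ran into the gene. MITF had 122 reads in DMSO and 98 in FHT-1015, a ratio of 0.907, with folds of 27.6 and 29.5. TFAP2A had 28 and 27 reads, a ratio of 0.971, and SMARCA4 had 16 and 17 reads, a ratio of 1.15. The MITF summit lay 27 bp from the centre of the M-box core in DMSO and 4 bp from it in FHT-1015. SOX10 summits were 112 bp and 77 bp from that centre, TFAP2A summits 60 bp and 13 bp, and SMARCA4 summits 83 bp and 266 bp.

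The M-box of TYR, printed above beside that of TYRP1, also lay under a peak of all 5 antibodies in both conditions, but with lower values after FHT-1015. SOX10 there had 55 reads in DMSO (41.4 to 71.6), about as many as at the TYRP1 promoter, and 21 in FHT-1015 (13 to 32.1), a depth-corrected ratio of 0.339 against 0.886 at TYRP1. MITF went from 147 to 62 reads at TYR, a ratio of 0.478 against 0.907 at TYRP1, and TFAP2A from 63 to 36, a ratio of 0.573 against 0.971. SMARCA4 gave 0.866 at TYR and 1.15 at TYRP1, and H3K27ac 0.732 and 1.18. All 5 ratios were lower at TYR than at TYRP1, in the same 10 libraries. The H3K27ac summits at TYR lay 315 bp from the M-box centre in DMSO and 1758 bp in FHT-1015, so that ratio compares different places. Over all retained peaks of each list the median ratio was 0.599 for SOX10, 0.806 for MITF and 0.898 for TFAP2A. It was 1.15 for SMARCA4 and 1.23 for H3K27ac. The exact intervals of the DMSO and FHT-1015 counts overlapped at both promoters for TFAP2A, SMARCA4 and H3K27ac. TYR was chosen for its shared motif after its loss of SOX10 peaks was known, and TYRP1 by its SOX10 peaks. The values of the pair, for SOX10 and for the other 4 antibodies, are therefore a description.

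**Figure D2:**
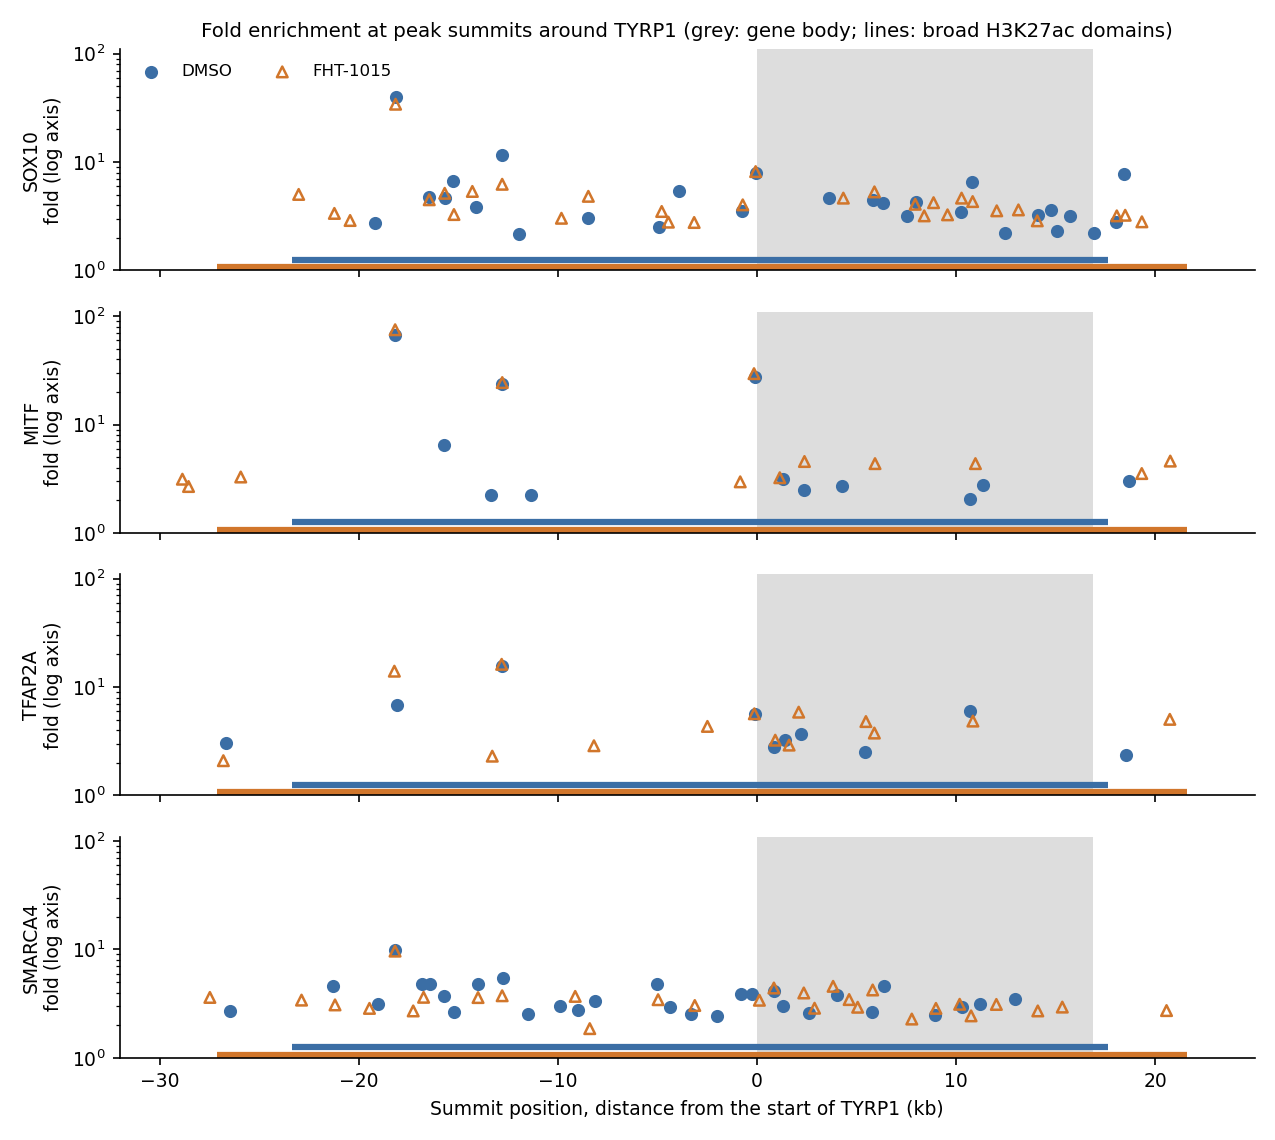
Fold enrichment (log axis) at the summit of each narrow peak of SOX10, MITF, TFAP2A and SMARCA4 within about 30 kb of TYRP1, against distance from its start in kb, with filled circles for DMSO, open triangles for FHT-1015, grey for the gene body and lines for the H3K27ac domains. The paired symbols at 18.15 kb upstream stand at 40.2 and 34.2 for SOX10 and at 66.6 and 75 for MITF, while most other SOX10 peaks lie below 5 in both conditions.

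Apart from these sites the SOX10 peaks of the locus were many and modest. The median fold was 3.57 in DMSO and 3.58 in FHT-1015, close to the medians of the whole lists (3.86 and 3.14), and the range was 2.17 to 40.2 and 2.71 to 34.2. Peaks covered 22.7 kb in DMSO and 24 kb in FHT-1015, with a median width of 397 bp and 482.5 bp against 326 bp and 262 bp over the lists. A −log10 p of at least 10 was reached by 10 peaks in DMSO and 9 in FHT-1015. Of the 10 in DMSO, 9 shared bases with an FHT-1015 peak of any strength, against 33.0% over the list, but only 5 with one that also reached 10.

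The gene body held 12 of the SOX10 peaks in DMSO and 11 of those in FHT-1015, the upstream side 14 and 18, and the stretch past its end 6 and 3. After the peak at the start, the 2 highest −log10 p values within the gene in DMSO were 12.5 and 21.4. The first had its summit 5.85 kb into the gene, with 30 reads and a fold of 4.50 in DMSO, and 32 reads and a fold of 5.31 in FHT-1015. The second, 10.79 kb into the gene, had 38 reads and a fold of 6.60 in DMSO and 28 reads and a fold of 4.32 in FHT-1015. A further strong peak lay just past the gene, 18.43 kb from its start. It had 45 reads and a fold of 7.79 in DMSO, while the nearest FHT-1015 summit had 19 reads and a fold of 3.23, and its depth-corrected coverage of 23.3 times the library mean became 8.74. It was still counted as retained.

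Over the 22 retained SOX10 peaks the summit moved by a median of 49.5 bp, with 11 within 50 bp, 17 within 200 bp and the farthest at 1599 bp, where one FHT-1015 peak spanned several DMSO peaks. The depth-corrected summit coverage in FHT-1015 had a median of 0.966 times that in DMSO, and 9 of the 22 were above 1. Over the 18936 retained SOX10 peaks of the genome the median was 0.599, and 11.4% were above 1. The locus was chosen by its SOX10 peaks, so this difference is a description and nothing is read from it. An FHT-1015 peak that spanned several DMSO peaks could be set against more than 1 of them. The individual ratios at TYRP1 ran from 0.375 to 9.42, the highest from a small DMSO peak that lay under the FHT-1015 peak of the strongest site. Without the division by depth the median was 1.09. For MITF the same median was 1.35 at the locus and 0.806 over its list, and for TFAP2A it was 1.26 against 0.898. SMARCA4 had 0.995 at the locus against 1.15, and H3K27ac 1.46 against 1.23. These locus medians rest on 8 MITF, 11 TFAP2A, 21 SMARCA4 and 6 H3K27ac ratios. For H3K27ac, 3.04, 1.71 and 2.28 came from small DMSO peaks set against the same FHT-1015 peak. The pieces of the DMSO domain had 1.2 and 1.18, and the peak at LURAP1L 1.01. For MITF 6 of the 8 ratios were above 1, among them 11.5 from a DMSO peak of 15 reads. The 3 strongest MITF peaks had 1.17, 0.925 and 0.907.

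The lost SOX10 peaks were narrow and mostly weak. Their median width was 294 bp and their median −log10 p 4.96, against 631.5 bp and 8.62 for the retained peaks, and only 1 of the 10 had a −log10 p of at least 10. That peak, at −3.89 kb, had a fold of 5.39, a −log10 p of 11.9 and 22 summit reads in DMSO. A run of 4 lost peaks followed one another at 14.78, 15.06, 15.72 and 16.95 kb, across the 3′ end of the gene, with folds of 2.20 to 3.65 and 11 to 17 summit reads. The 7 peaks found in FHT-1015 alone were all upstream of the gene and had a median −log10 p of 3.62, the highest 9.11. Of these, 3 lay at −23.01, −21.22 and −20.43 kb from the start of TYRP1, between the strongest site and the upstream edge of the domain.

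By their summits 26 of the 32 DMSO SOX10 peaks (81.2%) lay inside the H3K27ac domain of DMSO, and 30 of the 32 FHT-1015 peaks (93.8%) inside that of FHT-1015. These shares use different domains. Against the domain of the other condition they were 28 of 32 DMSO peaks (87.5%) and 27 of 32 FHT-1015 peaks (84.4%). Inside the DMSO domain 20 of the 26 DMSO peaks were retained and outside it 2 of 6. Those 2 lay past the end of the gene, at 12711297 and 12711645, beyond the DMSO domain but within the wider FHT-1015 domain. The 4 remaining outside peaks, at 12640076 and at the start of LURAP1L, were all lost. For MITF 8 of 11 were retained inside and 0 of 3 outside. For TFAP2A it was 8 of 8 inside and 3 of 8 outside, and for SMARCA4 20 of 29 inside and 1 of 2 outside. The outside counts are small. Over the whole lists the measure differed, since a summit in any broad H3K27ac peak counted as inside. In this way 48244 of the 103379 SOX10 peaks of the DMSO list were inside. Some peaks counted here as outside the domain had summits in other broad peaks, such as SOX10 at 12711816. By that measure the lists also had higher shares inside than outside. SOX10 had 30.2% against 7.96%, MITF 56.2% against 22.9%, TFAP2A 69.5% against 48.8%, and SMARCA4 72.5% against 27.6%. SOX10 peaks inside the domain were also wider and stronger, with a median width of 579 bp and a median −log10 p of 7.53 against 273 bp and 6.34 outside, and the part of width and strength in their retention was not tested.

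Just inside the start of LURAP1L the SOX10 list differed from the H3K27ac and SMARCA4 lists, TFAP2A was mixed, and MITF had no peak in either condition. The 3 SOX10 peaks there, at 12775481, 12775776 and 12776314, had folds of 2.49, 2.88 and 3.57 in DMSO and no counterpart in FHT-1015. They were weak, with 11, 16 and 24 summit reads. The H3K27ac peak there was retained, with a fold of 3.70 and 29 summit reads in DMSO and a fold of 3.0 and 30 reads in FHT-1015. The SMARCA4 peak was also retained, with 18 reads in DMSO and 27 in FHT-1015, as was a TFAP2A peak with 20 and 31 reads. Another TFAP2A peak, at 12775061 with 11 reads in DMSO, was lost. A TFAP2A peak at 12775506, with 12 reads, was found in FHT-1015 alone. In the same window as TYRP1, then, the start of a neighbouring gene had SOX10 peaks in DMSO and none in the FHT-1015 list.

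Some peaks found in FHT-1015 alone lay together, and 2 such groups are described here, chosen after their values were seen. About 53 kb upstream of TYRP1, 2 H3K27ac peaks at 12640221 and 12640740 had folds of 6.35 and 7.42, with 35 and 21 summit reads, where the DMSO H3K27ac list had no peak. The SOX10 list had a peak there at 12640076 in DMSO (20 reads) and one at 12641127 in FHT-1015 (8 reads), which share no base. At the far end of the widened domain, MITF, TFAP2A and SMARCA4 each had a peak in FHT-1015 alone, with summits 20.76, 20.74 and 20.57 kb from the start of TYRP1 and 12, 16 and 9 reads. No SOX10 peak lay over them.

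SOX10 peaks of the locus lined up with other antibodies unevenly. In DMSO 28 of 32 (87.5%) shared bases with H3K27ac, against 49.6% over the list, and 21 (65.6%) with SMARCA4, against 55.0%. Only 7 (21.9%) did so with MITF, against 45.0%, and 7 (21.9%) with TFAP2A, against 61.3%. In FHT-1015 the counts were 31 (96.9%) for H3K27ac, 18 (56.2%) for SMARCA4, 8 (25%) for MITF and 7 (21.9%) for TFAP2A, against 55.5%, 51.0%, 37.7% and 54.1% over the list. For TFAP2A the exact interval, 9.28 to 40.0% in both conditions, lay below the share of the list. For MITF it lay below in DMSO, at 9.28 to 40.0%, but in FHT-1015 it was 11.5 to 43.4% and contained the share of the list. The shares are not independent of the locus: a few H3K27ac peaks cover most of it. The SOX10 peaks counted here chose the locus, and the intervals treat neighbouring peaks as independent. The comparison with the lists is therefore a description, and nothing is read from it.

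Where SOX10 and another factor did overlap in DMSO, most summits were close. The median distance was 65 bp to the MITF summit, 80 bp to TFAP2A and 108 bp to SMARCA4, and in FHT-1015 it was 55, 60 and 92 bp. In DMSO 5 of 7 lay within 200 bp for MITF, 5 of 7 for TFAP2A and 14 of 21 for SMARCA4. The farthest were 671, 426 and 945 bp apart. In FHT-1015 it was 7 of 8, 5 of 7 and 15 of 18, with the farthest at 1591, 1134 and 292 bp. All 7 SOX10 peaks with MITF in DMSO were retained, and 15 of the 25 without it. For SMARCA4, 18 of 21 with it and 4 of 11 without it were retained, and for TFAP2A 6 of 7 and 16 of 25. The whole SOX10 list showed the same order at lower shares: 26.5% of peaks with MITF and 11.6% of those without it were retained, 24.7% and 10.5% for SMARCA4, and 24.1% and 9.17% for TFAP2A. Of the 11 DMSO peaks with none or 1 of the 4 other antibodies 3 were retained, and of the 13 with 2 others 12 were. Peaks with SMARCA4 had a median width of 612 bp and those without it 290 bp, and for MITF the widths were 1431 bp and 336 bp. A wider peak meets any other peak more often, so the part of width in these counts was not tested.

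**Figure D3:**
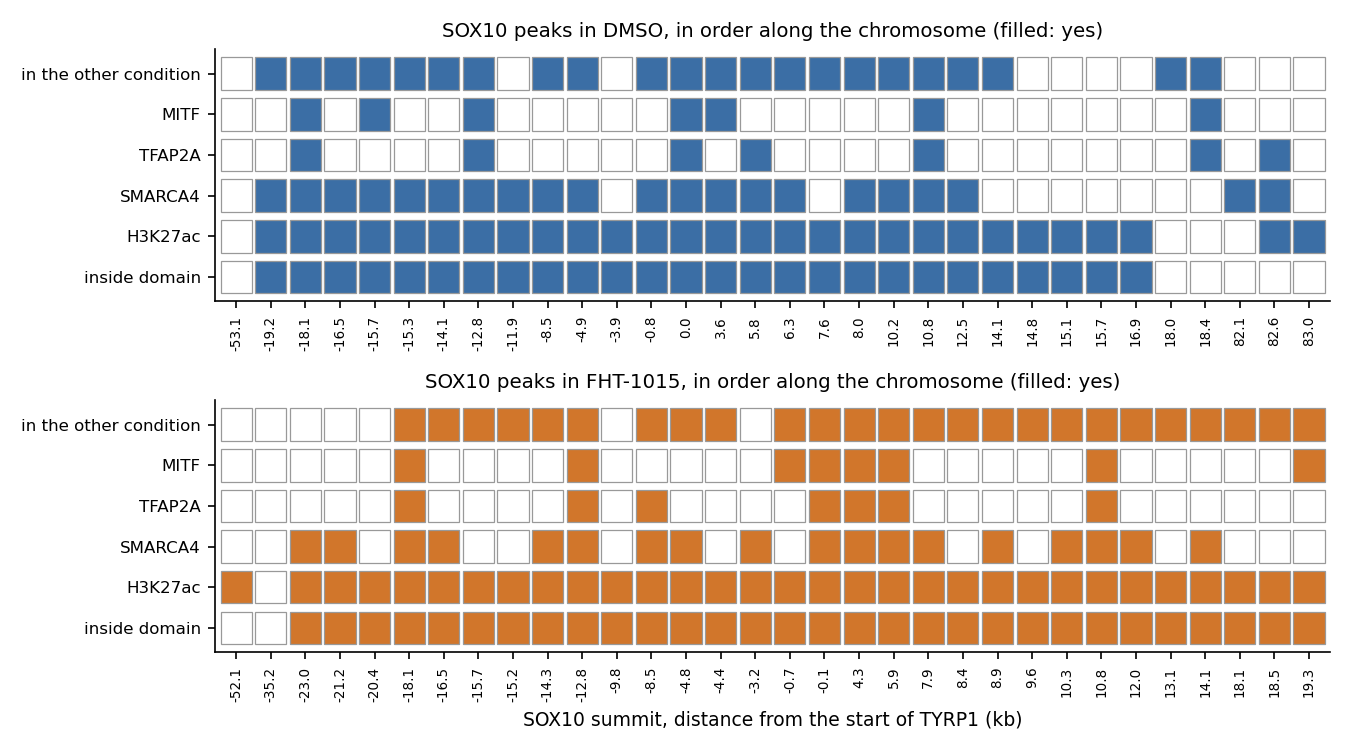
Each column is 1 SOX10 peak of the TYRP1 locus in order along the chromosome, labelled with the distance of its summit from the start of TYRP1 in kb, and filled squares show whether it had a peak in the other condition, a peak of each other antibody in the same condition, and a summit inside the H3K27ac domain. In DMSO the empty squares of the top row gather at 14.78 to 16.95 kb and at LURAP1L, 82.11 to 83 kb away, and in FHT-1015 they are all upstream of the gene.

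The SOX10 counts at TYRP1 were set beside those of 17 other loci defined in the same way, a list that like TYRP1 was drawn up with results known. All 17 had fewer SOX10 peaks in FHT-1015 than in DMSO, 161 against 442 in sum, and 107 of the 442 (24.2%, 0 to 52.8% per locus) were retained. At the 10 melanin and melanosome genes the sum was 214 in DMSO and 54 in FHT-1015, with 39 retained (18.2%). DCT, the other relative of tyrosinase, had 22 and 3 peaks with 2 retained, and TYR 12 and 2 with 2 retained. PMEL, which forms the fibrils of the melanosome, had 27 and 10 with 6 retained, and MLANA 25 and 4 with 4. OCA2, a gene of a melanosomal membrane transporter, had 15 and 1 with none retained. The number with a −log10 p of at least 10 over these 10 loci was 67 in DMSO and 7 in FHT-1015, against 10 and 9 at TYRP1 alone.

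The genes of the lineage factors and of SMARCA4 had 170 and 77 SOX10 peaks with 50 retained (29.4%), among them MITF with 68 and 30 and SOX10 itself with 36 and 10. TFAP2A had the highest retained share of the 17, 19 of 36 (52.8%). The 3 control loci ACTB, GAPDH and TBP had 58 and 30 with 18 retained (31.0%). At the edges of the TYRP1 window, the nearest SOX10 peaks outside it in DMSO, at 12575494 and 12814244, had folds of 3.18 and 6.70, and those just inside, at 12640076 and 12776314, folds of 3.55 and 3.57.

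**Figure D4:**
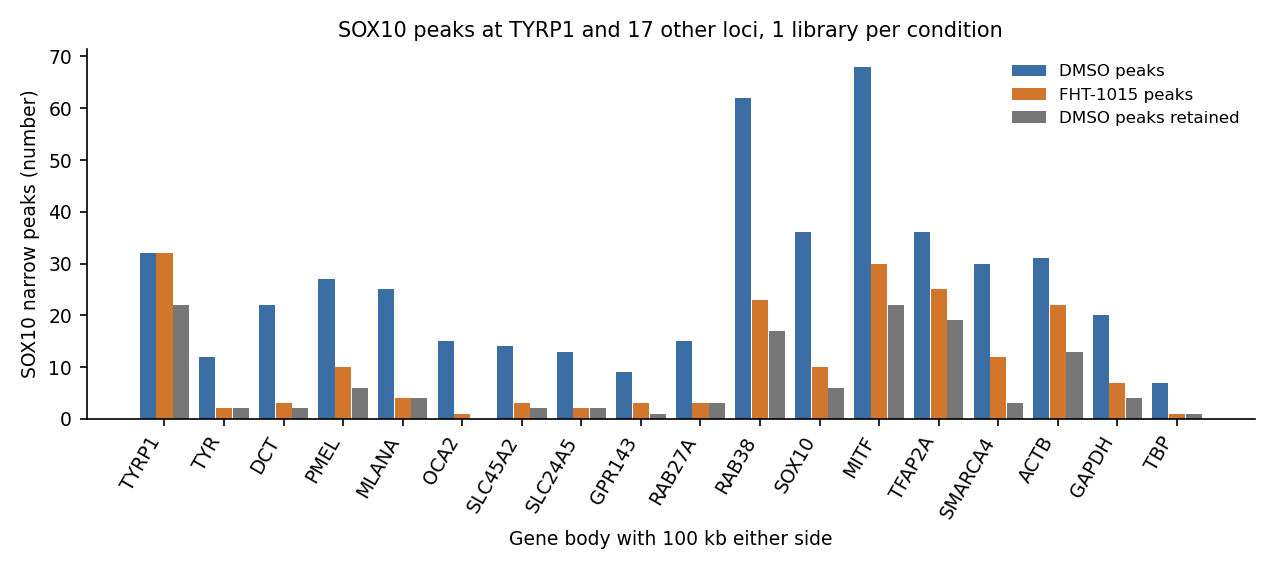
Number of SOX10 narrow peaks in DMSO (blue) and FHT-1015 (orange), and of DMSO peaks retained (grey), for each gene body with 100 kb either side. TYRP1 has 32, 32 and 22, and at each of the 17 other loci the orange bar is shorter than the blue one.

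Wide H3K27ac domains elsewhere also held many SOX10 peaks. The DMSO list had 33 broad H3K27ac peaks of at least 20 kb. By the number of SOX10 summits inside, the TYRP1 domain came second with 26, after 38 in a domain at PAX3, a gene of another neural crest factor. Of the 26, 20 were retained (76.9%), and the same interval held 27 SOX10 summits in FHT-1015. Of the 24 other domains with at least 10 SOX10 peaks, the median retained share was 51.2% and the range 14.3 to 90.9%. At or above the share at TYRP1 were 4 of them: a domain on chromosome 7 with no protein-coding gene (90.9%), BAHCC1 (81.0%), a domain at GNAI1 (80%) and ZC3H13 (76.9%). In 3 of the 24 there were at least as many SOX10 peaks in FHT-1015 as in DMSO. As the locus was chosen by its SOX10 peaks, these values are set side by side and nothing is read from the rank of TYRP1.

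The domains nearest to TYRP1 in number of SOX10 peaks varied widely. A second domain at GNAI1, chr7:80182720-80235183, had 25 and 11 with 8 retained (32.0%). A domain without a protein-coding gene, chr5:160449885-160488080, had 22 and 17 with 14 retained (63.6%). Then came 3 domains with 21 peaks in DMSO: one on chromosome 11 without a protein-coding gene (17 in FHT-1015, 57.1% retained), one at RAB38 (14, 52.4%) and that at BAHCC1 (18, 81.0%). The PAX3 domain, with the most peaks, had 38 and 14 with 14 retained (36.8%). In sum all 32 other wide domains, those with fewer than 10 SOX10 peaks included, went from 450 to 292 SOX10 peaks, with 229 of the 450 retained (50.9%). Strong peaks, those at or above 10 on the −log10 p scale, numbered 167 in DMSO and 65 in FHT-1015 in these 32 domains, while the TYRP1 domain had 9 and 9. The TYRP1 domain had 6.34 SOX10 peaks per 10 kb in DMSO, and the median of the 32 others was 4.60.

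**Figure D5:**
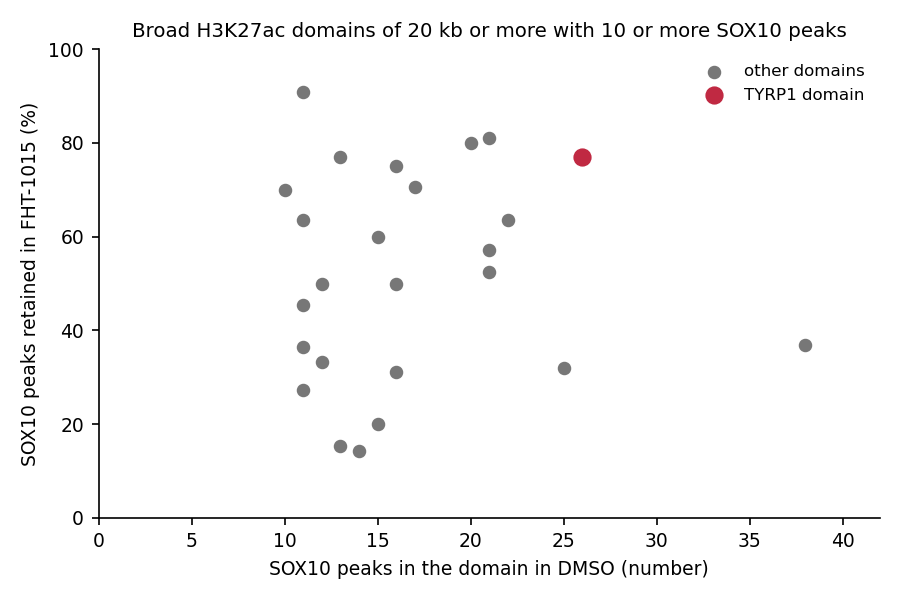
Share of SOX10 peaks retained (%) against the number of SOX10 peaks in DMSO, for the 25 broad H3K27ac domains of at least 20 kb with at least 10 SOX10 peaks. The TYRP1 domain (red) stands at 26 peaks and 76.9%, and the 24 others (grey) run from 14.3 to 90.9%.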

How the data were processed

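The authors deposited 14 peak lists, 10 narrow and 4 broad (H3K27ac and SMARCA4), each from 1 library. BWA, SAMtools, Picard and MACS2 and the build hg38 are named, per the submitters' processing notes, without versions, settings or the control used. The fold enrichment that the authors deposited is a ratio over the caller's background and was used within each list. The −log10 p that the authors deposited ranked and filtered peaks, and it was at least 2 in every list. The −log10 q and the score column, both deposited by the authors, were not used further. The score matched 10 times the −log10 p in narrow lists and 10 times the −log10 q in broad ones. The offset of the summit within each peak, deposited by the authors as another column, gave the summit position. Coordinates count from 1.

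Genes and promoters came from RefSeq on GRCh38.p14. The locus, the gene lists, the windows and the comparisons were chosen with earlier results of these data known. Named genes were TYRP1, the genes of its window, 17 genes in 3 lists (pigment, lineage, control), and the genes of the wide domains beside TYRP1 in peak number or retained share. Overlap needed 1 bp. Peaks were strong at a −log10 p of at least 10. Duplicate peaks (identical start and end) were counted once.

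Summit reads x and background λ were recovered from fold = (x + 1)/(λ + 1) and the Poisson upper tail. In every list x was whole for at least 99.97% of peaks, within 0.002, or within 0.02 for the SOX10 FHT-1015 list, whose values fit a library scaled by 0.8896. Coverage is x over the lowest λ of the list, and the depth-corrected ratios are ratios of this coverage. The lowest λ in DMSO and FHT-1015 was 1.93 and 1.935 for SOX10, 1.394 and 1.234 for MITF, and 1.618 and 1.612 for TFAP2A. It was 1.907 and 1.769 for SMARCA4 and 1.919 and 1.966 for H3K27ac. A separate relative depth per bp (FHT-1015 over DMSO) also divided λ by the width of the shortest peak. It was 1.145 for SOX10, 0.8543 for MITF, 0.9596 for TFAP2A, 0.9179 for SMARCA4 and 1.05 for H3K27ac, and did not enter the ratios. The median summit had 8 to 27 reads, depending on the list. The form was inferred from the values. The scripts were tested on simulated peaks (python 3.11.15, numpy 2.4.6, pandas 2.3.3, scipy 1.17.1, matplotlib 3.10.9). Identifiers of the SOX10 libraries carried another prefix than the others, with no meaning given, so whether these libraries form a batch was not tested.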

Additional observations from a re-analysis of the deposited data

How the results depend on the processing

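Of 75 alternatives, 53 left the value within its interval, 19 moved it beyond and 3 turned a direction. For the summit-read ratios that interval was a band of fixed proportion around the value (0.644 to 1.45 for SOX10), not a counting interval. SOX10 retention was 42.9% (3 of 7 peaks) with a fold of at least 5 in both lists, and 90% for DMSO peaks at or above 10 on the −log10 p scale (called strong) set against the whole FHT-1015 list, an alternative chosen after seeing the data. The latter also gave 100% for TFAP2A and 100% for SMARCA4, and TFAP2A was 100% with strong peaks in both lists. SMARCA4 retention was 48.4% with 50% of the peak covered, 38.7% with summits within 200 bp and 84.2% in the broad lists. The ratio of MITF peak numbers, 1.21 over all peaks, turned to 0.750 with strong peaks and to 0.750 with a fold of at least 5 in both lists. The SOX10 summit ratio turned to 1.09 when not divided by depth. With the narrow H3K27ac peak as the domain, 56.2% of DMSO and 65.6% of FHT-1015 SOX10 peaks lay inside. Between strong peaks, SOX10 overlap was 40.0% (DMSO) and 44.4% (FHT-1015) for TFAP2A, 30% and 33.3% for SMARCA4, and 100% for H3K27ac in FHT-1015. By summits it was 43.8% for SMARCA4 in DMSO and 3.12% for H3K27ac in both conditions, as a domain has few summits. Pooled retention in other domains was 45.9% from 10 kb. Apart from the depth and summit settings, the cause of each move was not tested. No paired analysis was possible because each group has 1 library. Depth limits the weak peaks most, which have as few as 5 summit reads (MITF, FHT-1015).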
